A study of Mus musculus with 44 samples.

Results

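The matrix proteases and their inhibitors described here are the genes of the matrix metalloproteinase (MMP), tissue inhibitor of metalloproteinases (TIMP), ADAM and ADAMTS families, chosen by gene symbol alone. They are 78 of the 20105 identifiers in the count table: 23 MMP, 4 TIMP, 32 ADAM and 19 ADAMTS genes. Symbols came from the authors' deposited table for 34 and from the RefSeq gene table for 44. Of the 78, 4 had no count in any library (Adam20, Adam39, Adam6a and Mmp1a), and 17 had fewer than 44 counts over all libraries together.

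MMPs are zinc endopeptidases that cut collagens, elastin, proteoglycans and other matrix proteins, either secreted or held at the cell surface as membrane-type MMPs. TIMPs block them, and Timp3 also blocks several ADAM and ADAMTS enzymes. ADAMs sit in the cell membrane, where Adam10 and Adam17 release the outer parts of growth factors, cytokine receptors and adhesion molecules, while ADAMTS enzymes are secreted and process procollagen, proteoglycans such as versican and other matrix proteins. In injured liver these genes are best known from hepatic stellate cells and macrophages, and matrix accumulates when its synthesis outruns its removal.

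RNA was measured in nuclei of male HEP-INTACT mice, whose hepatocyte nuclei carry a tag by which they can be pulled down, and the livers of 22 mice were each sampled as tagged hepatocyte nuclei and as nuclei of the whole liver, in 44 libraries. The mice ate the FPC diet (rich in fructose, palmitate and cholesterol) for 20 weeks or the CDAHFD (choline-deficient, amino acid-defined, high-fat) for 7 weeks, and control mice ate a low-fat diet for the same time. In each diet study and each kind of nuclei there were 4 control, 4 mild and 3 advanced mice. Mild and advanced mice ate the same diet and were separated by liver histology, advanced mice being those with marked fibrosis, so that stage was not randomised. All mice carry the tag, the promoter that drives it and the ages of the mice are not given in the sources used here, and advanced and mild mice were compared with the same control mice.

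Libraries held 12135408 to 33063251 counts. Levels below are normalised CPM, that is CPM after scaling each library for composition, with the libraries of a group listed from lowest to highest. Hepatocyte markers were present in all hepatocyte libraries, and their summed level stood at 121% of whole-liver nuclei in FPC control mice. Markers of other cells were also measured there, stellate, mesothelial, endothelial, macrophage and cholangiocyte markers among them. Summed over 18 endothelial markers, hepatocyte nuclei held 10.8% ± 0.619 (SD, n = 4) of the whole-liver level in FPC control, 19.3% ± 5.33 (n = 4) in mild and 11.6% ± 2.51 (n = 3) in advanced mice, and 10.6% ± 1.7, 13% ± 0.356 and 15.6% ± 1.68 in the CDAHFD groups. Summed over 14 stellate markers it was 22.3% ± 4.4 in FPC control and 19.3% ± 2.79 in FPC advanced mice, and 29% ± 7.84 and 28.5% ± 4.95 under CDAHFD, above the endothelial share. The median over single stellate markers was 11.2% ± 2.28 in FPC and 17.2% ± 1.6 in CDAHFD advanced mice. For endothelial markers that median was 9.93% ± 2.49 and 9.17% ± 1.27. Of the stellate markers, 8 of 14 rose in FPC and 6 of 13 in CDAHFD hepatocyte nuclei of advanced mice, with 1 lower in CDAHFD, and their summed level was 102 to 147 in FPC control and 176 to 262 in FPC advanced mice. For 4 mesothelial markers the share went from 35.8% ± 5.28 to 115% ± 16.9 under FPC and from 24.2% ± 0.729 to 49% ± 7.93 under CDAHFD, and 2 and 1 of the 2 tested rose. The median over single mesothelial markers was 64.3% ± 45 and 28.7% ± 3.33 in advanced FPC and CDAHFD mice. Of 10 recruited-macrophage markers, 10 rose in FPC and 10 in CDAHFD hepatocyte nuclei of advanced mice. All 11 tested cholangiocyte markers rose in FPC and 10 of 11 in CDAHFD hepatocyte nuclei, where their summed level was 583 to 647 in FPC control against 3955 to 5763 in FPC advanced mice, and 443 to 557 against 1377 to 1969 in CDAHFD mice. In advanced mice that sum was 155% ± 8.92 and 107% ± 0.839 of the whole-liver level. Epcam in FPC hepatocyte nuclei was at 0 to 0.361 in control and 6.71 to 12.4 in advanced mice, and Krt19 at 0.0485 to 0.366 and 1.97 to 5.28. Where a value after subtraction of carried-over RNA is given below, each hepatocyte library was first reduced by the endothelial share of the same mouse's whole-liver library, which does not remove RNA of cells whose share is above the endothelial one, such as stellate, mesothelial and cholangiocyte markers. Beyond that, the part of these markers in the results was not tested. The hepatocyte libraries of CDAHFD control mice Control_9862 and Control_9867 correlated with each other's whole-liver library (r = 0.88 and 0.79) and not with their own (r = -0.22 and -0.30). Subtraction paired these mice by their labels and was not repeated with their whole-liver libraries exchanged, which limits the CDAHFD values after subtraction. Without mouse Control_9862 or Control_9867, 27 and 28 members were called in advanced against control CDAHFD hepatocyte nuclei, beside 30 with both.

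In hepatocyte nuclei of advanced FPC mice, 29 of the 45 members that passed the filter on low counts rose and 1 fell against control (edgeR's quasi-likelihood test, Benjamini-Hochberg adjusted over all genes, threshold 0.05). Over all genes 46.9% were called, 26.5% higher and 20.4% lower. In CDAHFD hepatocyte nuclei 25 of 45 members rose and 5 fell, where 30.3% of all genes rose and 29.2% fell (59.5% called). In whole-liver nuclei 35 of 50 rose and 2 fell in FPC mice (background 59.3%: 31.3% higher, 28% lower), and 36 of 51 rose and 3 fell in CDAHFD mice (background 55.7%: 29.7% higher, 25.9% lower). The median log2 fold change of the members in advanced against control mice was 1.50 in FPC and 1.19 in CDAHFD hepatocyte nuclei and 1.74 and 1.30 in whole-liver nuclei, beside a median of 0.00 over all genes in each of these fits. Values given with a gene below are log2 fold changes ± standard error from these fits unless a level is named. Members below the filter were not tested, and a gene can pass the filter by its level in diseased mice alone, so these counts describe the tested members only.

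In FPC hepatocyte nuclei 8 of the 12 tested MMPs, both tested TIMPs (Timp2 and Timp3), 8 of the 16 ADAMs and 11 of the 15 ADAMTS genes rose. Summed over all 78 members, the level in hepatocyte nuclei was 521 ± 18.5 (SD) in FPC control and 1012 ± 154 in FPC advanced mice. The ADAMTS genes made up most of that difference, at 148 ± 24.7 and 519.6 ± 107. In CDAHFD mice the ADAMTS sum was 150.1 ± 32.7 in control and 355 ± 34.8 in advanced hepatocyte nuclei, and the ADAM sum was 296 ± 3.16 and 287 ± 25.3. Long genes weigh most in these sums, since reads were counted over whole genes. Scaled by library totals only, the median of all genes moved up by 0.41 (log2) in FPC and 0.49 in CDAHFD hepatocyte nuclei of advanced mice. Of all genes called, 56.5% were higher in FPC and 51% in CDAHFD mice, and 84.8% and 80.1% with that scaling. The split of member calls was then 35 higher and 1 lower in FPC and 30 higher and 0 lower in CDAHFD mice, and changes below are relative to composition-scaled libraries.

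**Figure D1:**
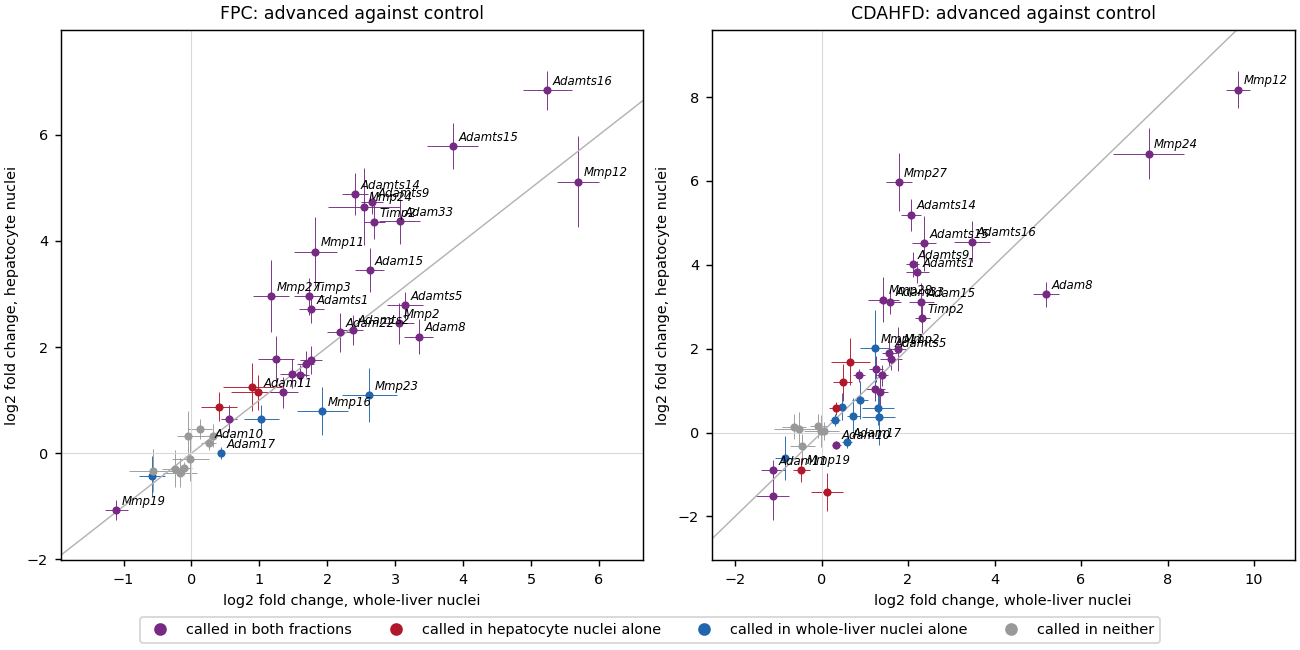
Log2 fold change of each tested member in advanced against control mice, whole-liver nuclei on the x axis and hepatocyte nuclei on the y axis, 1 panel per diet; bars are standard errors, the line marks equal change and colours show in which fraction the change was called. Mmp7, with no count in control hepatocyte nuclei, is left out; Adamts14 and Adamts9 lie above the line under both diets and Adam8 lies below it.

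Mmp7 encodes matrilysin, a small secreted MMP made mainly by epithelial cells. It had already been singled out in these data, so its values are a description. In FPC hepatocyte nuclei its level was 0, 0, 0 and 0 in control, 0.199, 0.303, 0.313 and 0.37 in mild and 10.2, 12.2 and 16.2 in advanced mice. Under CDAHFD it was 0, 0, 0 and 0 in control, 0.198, 0.209, 2.61 and 2.78 in mild and 3.43, 5.87 and 12.4 in advanced mice. No control library held a count, no group overlapped its neighbour in FPC mice, and in CDAHFD mice the mild libraries split into a low and a high pair. Against the limit that 3 counts over the control group allow, advanced FPC hepatocyte nuclei were at least 305-fold higher and advanced CDAHFD nuclei at least 215-fold higher (counting error only). Whole-liver nuclei gave 0, 0.0345, 0.037 and 0.0681 in control and 7.88, 7.98 and 8.75 in advanced mice of the FPC study. Advanced hepatocyte nuclei held 158% ± 42 (SD, n = 3) of the whole-liver level, beside 155% ± 8.92 for the cholangiocyte markers. In CDAHFD mice Mmp7 was at 140.2% ± 30.5, beside 107% ± 0.839 for the cholangiocyte markers. The median over single cholangiocyte markers was 124% ± 24.7 and 130% ± 12.5 in advanced FPC and CDAHFD mice. Hepatocyte markers, summed, stood at 138% ± 5.63 and 173% ± 5.2.

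Mmp7 lies at chr9:7692090-7699585 (plus strand, mm10) at one end of a run of MMP genes on chromosome 9 that also holds Mmp13, Mmp12, Mmp1b, Mmp3, Mmp1a, Mmp10, Mmp8, Mmp27 and Mmp20. Its neighbours differed from it in place: Mmp12 (chr9:7344397-7360461), Mmp13 (chr9:7272514-7283333) and Mmp27 (chr9:7571396-7581885) were measured mainly in whole-liver nuclei, Mmp3 and Mmp8 stayed under 0.4 normalised CPM in every group mean, and Mmp1a, Mmp10 and Mmp20 had 0, 3 and 17 counts in all 44 libraries. The 250 bases before the start of Mmp7 and of its neighbours Mmp13 and Mmp12, and of Adamts9 and Adamts14, which also rose in hepatocyte nuclei, are printed because these genes share a locus or a direction of change (RefSeq, GRCm38.p6, 5′ to 3′ on the gene's strand). Capitals mark the AP-1 motif TGANTCA, searched on both strands.
Mmp7: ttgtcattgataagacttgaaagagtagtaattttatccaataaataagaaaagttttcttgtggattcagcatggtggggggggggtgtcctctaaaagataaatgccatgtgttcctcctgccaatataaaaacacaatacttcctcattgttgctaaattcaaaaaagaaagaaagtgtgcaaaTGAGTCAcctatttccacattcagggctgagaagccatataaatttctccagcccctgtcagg
Mmp13: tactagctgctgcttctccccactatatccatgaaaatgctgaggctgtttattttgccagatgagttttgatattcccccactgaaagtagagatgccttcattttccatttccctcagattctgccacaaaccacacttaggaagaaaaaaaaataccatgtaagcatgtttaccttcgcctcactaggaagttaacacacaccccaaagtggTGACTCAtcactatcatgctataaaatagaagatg
Mmp12: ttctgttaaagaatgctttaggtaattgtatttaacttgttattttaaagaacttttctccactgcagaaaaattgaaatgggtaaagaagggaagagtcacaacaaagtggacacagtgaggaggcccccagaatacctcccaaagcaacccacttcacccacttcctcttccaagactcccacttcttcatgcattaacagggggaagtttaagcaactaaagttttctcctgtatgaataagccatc
Adamts9: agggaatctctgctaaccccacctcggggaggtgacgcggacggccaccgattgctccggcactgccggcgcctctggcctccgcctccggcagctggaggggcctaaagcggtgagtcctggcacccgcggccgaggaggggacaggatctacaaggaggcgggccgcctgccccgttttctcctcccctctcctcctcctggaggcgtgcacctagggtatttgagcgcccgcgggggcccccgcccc
Adamts14: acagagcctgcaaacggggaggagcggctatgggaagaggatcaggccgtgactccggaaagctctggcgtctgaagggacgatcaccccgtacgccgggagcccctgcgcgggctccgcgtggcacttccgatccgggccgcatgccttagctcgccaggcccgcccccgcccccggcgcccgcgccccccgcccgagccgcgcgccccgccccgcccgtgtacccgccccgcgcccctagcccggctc
The windows are chr9:7691840-7692089, plus strand; chr9:7272264-7272513, plus strand; chr9:7344147-7344396, plus strand; chr6:92943535-92943784, minus strand; and chr10:61273420-61273669, minus strand. The motif starts 63 bases before the start of Mmp7 and 35 before that of Mmp13, and was not found in the other windows printed.

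Windows of this length were at hand for 49 of the 78 members. AP-1 was found in 10 of them (20.4%) and in 6.75% of all 32851 RefSeq windows. Of those 10, 7 are in the chromosome 9 run (Mmp1a, Mmp1b, Mmp3, Mmp7, Mmp10, Mmp13 and Mmp20), and most of these had few or no counts. The TATA box TATAAA was found in 12 (24.5%; 12.4% of all) and the TEAD motif GGAATG in 2 (4.08%; 12.6% of all), also on both strands. A match is a description of the letters, not of a bound site.

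Among the membrane-type MMPs, Mmp14, which activates pro-Mmp2 at the cell surface, rose in hepatocyte nuclei under both diets. Its level in FPC hepatocyte nuclei was 6.71, 8.29, 8.72 and 9.65 in control, 7.4, 14, 14.1 and 18.7 in mild and 16.2, 21.9 and 26.8 in advanced mice, with a log2 fold change in advanced against control mice of 1.50 ± 0.27 (adjusted p = 0.00054). Under CDAHFD the hepatocyte level was 10.4, 10.8, 10.9 and 14.8 in control, 20.9, 25.3, 27.8 and 28.6 in mild and 27.6, 27.8 and 34.1 in advanced mice, a log2 change of 1.36 ± 0.16 (adjusted p = 2.4e-05). Advanced and control groups did not overlap under either diet, and whole-liver nuclei rose by 1.49 and 0.86 (log2). Mmp24, another membrane-type MMP known from neurons, was near the limit of detection in control mice and was measured in every advanced mouse. FPC hepatocyte nuclei gave 0, 0, 0.0485 and 0.0611 in control, 0.0398, 0.202, 0.206 and 0.313 in mild and 0.592, 0.764 and 0.929 in advanced mice, and CDAHFD hepatocyte nuclei 0, 0, 0 and 0.0502 in control, 0.523, 0.628, 0.751 and 0.771 in mild and 1.51, 1.89 and 2.28 in advanced mice. The counts over the groups give ratios of 28 (95% counting interval 7.41 to 236) and 154 (27.1 to 6156). Mmp24 overlaps another gene in its body, so its reads may be shared. Mmp15, also a membrane-type MMP, was at 32.2 ± 5.84 (SD) in control and 40.7 ± 7.61 in advanced FPC hepatocyte nuclei, a change that was not called (0.46 ± 0.19, adjusted p = 0.066).

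Mmp19, which like Mmp28 overlaps another gene in its body and may share reads with it, was the MMP that fell. In FPC hepatocyte nuclei it was at 21.2 to 26.6 in control and 8.65 to 12.4 in advanced mice, a log2 change of -1.07 ± 0.19 (adjusted p = 0.00041). In CDAHFD hepatocyte nuclei the change was -0.89 ± 0.29 (adjusted p = 0.018), and the call was lost without advanced mouse Advanced_9845 or Advanced_10104 and with scaling by library totals only. Mmp11, stromelysin-3, gave 0, 0.0611, 0.194 and 0.309 in control and 0.827, 2.11 and 3.01 in advanced mice of FPC hepatocyte nuclei (3.80 ± 0.65, adjusted p = 0.00034), and in CDAHFD mice it was not called (2.01 ± 0.92, adjusted p = 0.076). Mmp28, epilysin, rose by 1.77 ± 0.44 (adjusted p = 0.0055) and 3.17 ± 0.55 (adjusted p = 0.00037) from levels of 0.155 to 0.489 and 0 to 0.27 in control mice. After subtraction of carried-over RNA it was called in CDAHFD (adjusted p = 0.0015) and did not pass the filter in FPC hepatocyte nuclei.

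**Figure D2:**
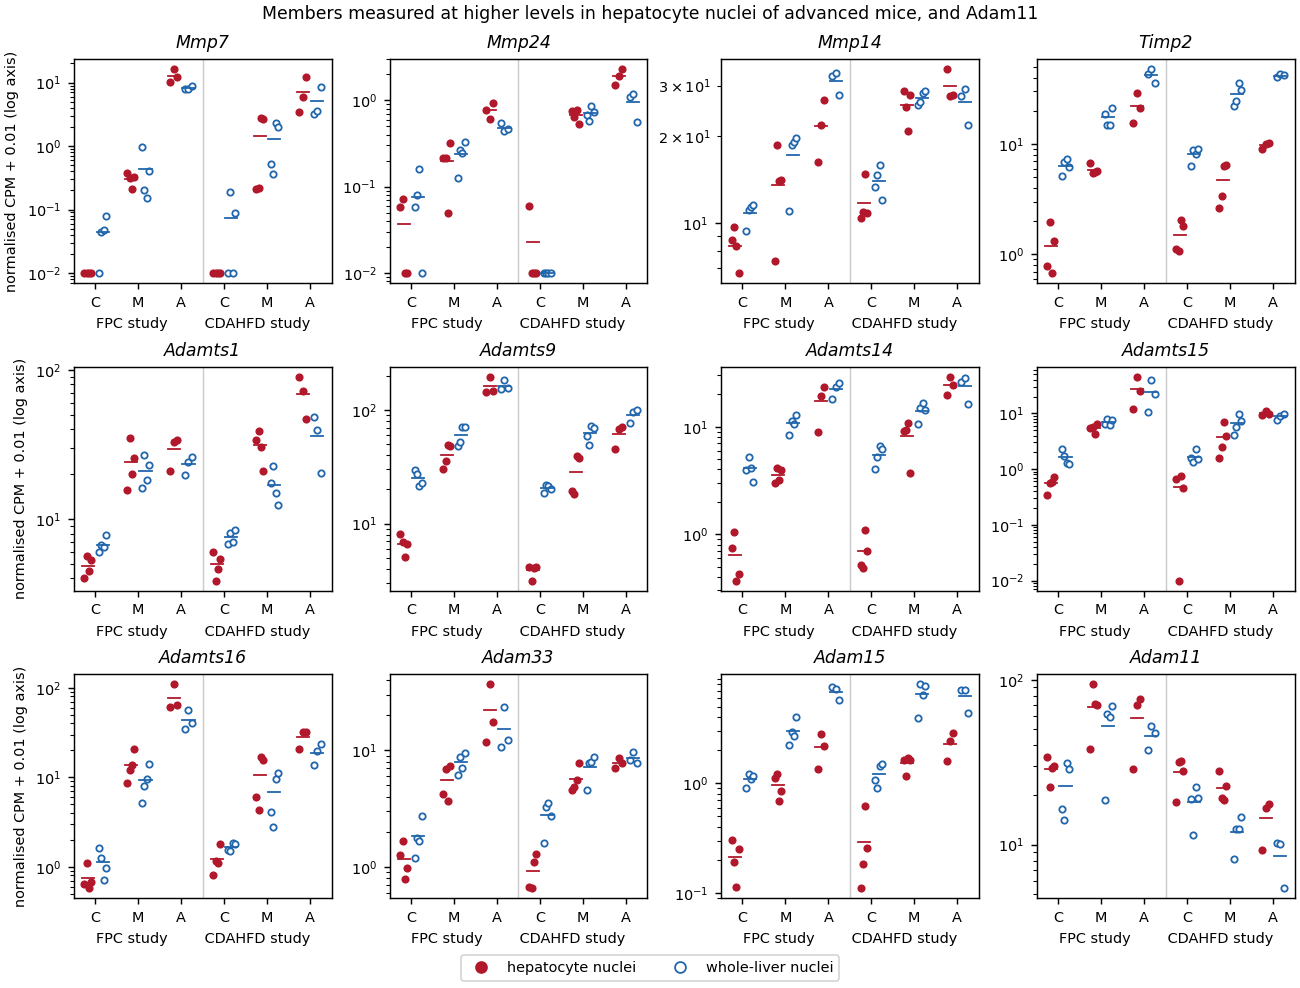
Normalised CPM (plus 0.01, log axis) of 12 members in every library, for control (C), mild (M) and advanced (A) mice of each diet study; filled points are hepatocyte nuclei, open points whole-liver nuclei and bars group means. Adamts16 in FPC hepatocyte nuclei is at 0.567 to 1.1 in control and 60.3 to 109 in advanced mice, and Adam11 rises under FPC and falls under CDAHFD.

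A second set of MMPs was measured mainly outside the tagged nuclei. Mmp12, macrophage elastase, rose in whole-liver nuclei under both diets. In CDAHFD mice its level was 0.134, 0.196, 0.223 and 0.226 in control, 112, 131, 136 and 185 in mild and 131, 152 and 204 in advanced mice. In FPC mice it was 0.19, 0.207, 0.222 and 0.409 in control, 8.52, 12.7, 13.2 and 17.3 in mild and 11.2, 12 and 15.8 in advanced mice. The log2 change was 9.63 ± 0.28 (adjusted p = 4e-10) in advanced CDAHFD mice and 5.69 ± 0.31 (adjusted p = 2.6e-08) in FPC mice. Mild and advanced mice overlapped under both diets, and both lay far above control. Hepatocyte nuclei of advanced mice held 10.8% ± 5.07 (SD, n = 3) of the whole-liver level under FPC and 5.6% ± 0.426 under CDAHFD, where the endothelial markers were at 11.6% ± 2.51 and 15.6% ± 1.68. Mmp12 passed the filter and was called in hepatocyte nuclei too, from 3 counts over FPC control and 2 over CDAHFD control mice, at 6.85, 9.19 and 11.3 in advanced CDAHFD mice. After subtraction of the carried-over share Mmp12 no longer passed the filter there.

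Mmp2, gelatinase A, a product of activated stellate cells, gave 1.41, 1.66, 2.25 and 2.3 in control and 15.3, 16 and 16.8 in advanced mice in FPC whole-liver nuclei (3.05 ± 0.23, adjusted p = 3.3e-07) and 1.47, 1.93, 2.04 and 2.55 in control and 6.17, 7.11 and 7.6 in advanced mice in CDAHFD whole-liver nuclei (1.76 ± 0.19, adjusted p = 7.3e-06). Mmp2 in FPC hepatocyte nuclei was at 0.923, 1.52 and 1.59 in the advanced group, 8.35% ± 2 of whole liver. Mmp13, a collagenase, was at 0 to 0.173 in control and 1.1 to 1.23 in advanced FPC whole-liver nuclei (3.49 ± 0.60, adjusted p = 0.0003). In CDAHFD whole-liver nuclei it was at 0 to 0.196 and 1.93 to 3.23 (4.41 ± 0.43, adjusted p = 2.9e-06), and it was too low for a test in hepatocyte nuclei. Mmp9, gelatinase B, was called in CDAHFD whole-liver nuclei (2.50 ± 0.59, adjusted p = 0.0029) and not in FPC (1.21 ± 0.64, adjusted p = 0.12), with group means under 1.5 throughout. Mmp25 (3.33 ± 0.61, adjusted p = 0.00046 in FPC), Mmp16 (1.93 ± 0.38, adjusted p = 0.00075) and Mmp23 (2.62 ± 0.40, adjusted p = 0.00012), also low, rose in whole-liver nuclei of both diets, and Mmp17 in FPC mice (2.64 ± 0.44, adjusted p = 0.00021). Mmp16 was not called in CDAHFD whole-liver nuclei without advanced mouse Advanced_10104. Mmp8, the neutrophil collagenase, and Mmp3 were below the filter in hepatocyte nuclei, and Mmp8 had 13 counts over 3 advanced and none over 4 control CDAHFD whole-liver libraries.

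Mmp27 peaked in mild FPC mice. Its whole-liver levels were 1.31, 1.48, 1.64 and 1.8 in control, 5.63, 8.51, 10.2 and 11.4 in mild and 2.83, 3.25 and 4.64 in advanced mice, and in hepatocyte nuclei of the same mice they were 0, 0.0485, 0.0515 and 0.18 in control, 1.04, 1.16, 1.91 and 2.55 in mild and 0.295, 0.605 and 0.683 in advanced mice. Advanced FPC mice were below mild mice in both, with log2 differences of -1.33 ± 0.25 (adjusted p = 0.0027) and -1.62 ± 0.47 (adjusted p = 0.028). Of the endothelial markers in FPC hepatocyte nuclei, 9 of 18 were also lower in advanced than in mild mice, and their part was not tested. In CDAHFD whole-liver nuclei Mmp27 was 1.14, 1.43, 2.49 and 3.65 in control, 8.16, 8.25, 8.25 and 8.83 in mild and 6.82, 8.11 and 8.15 in advanced mice.

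**Figure D3:**
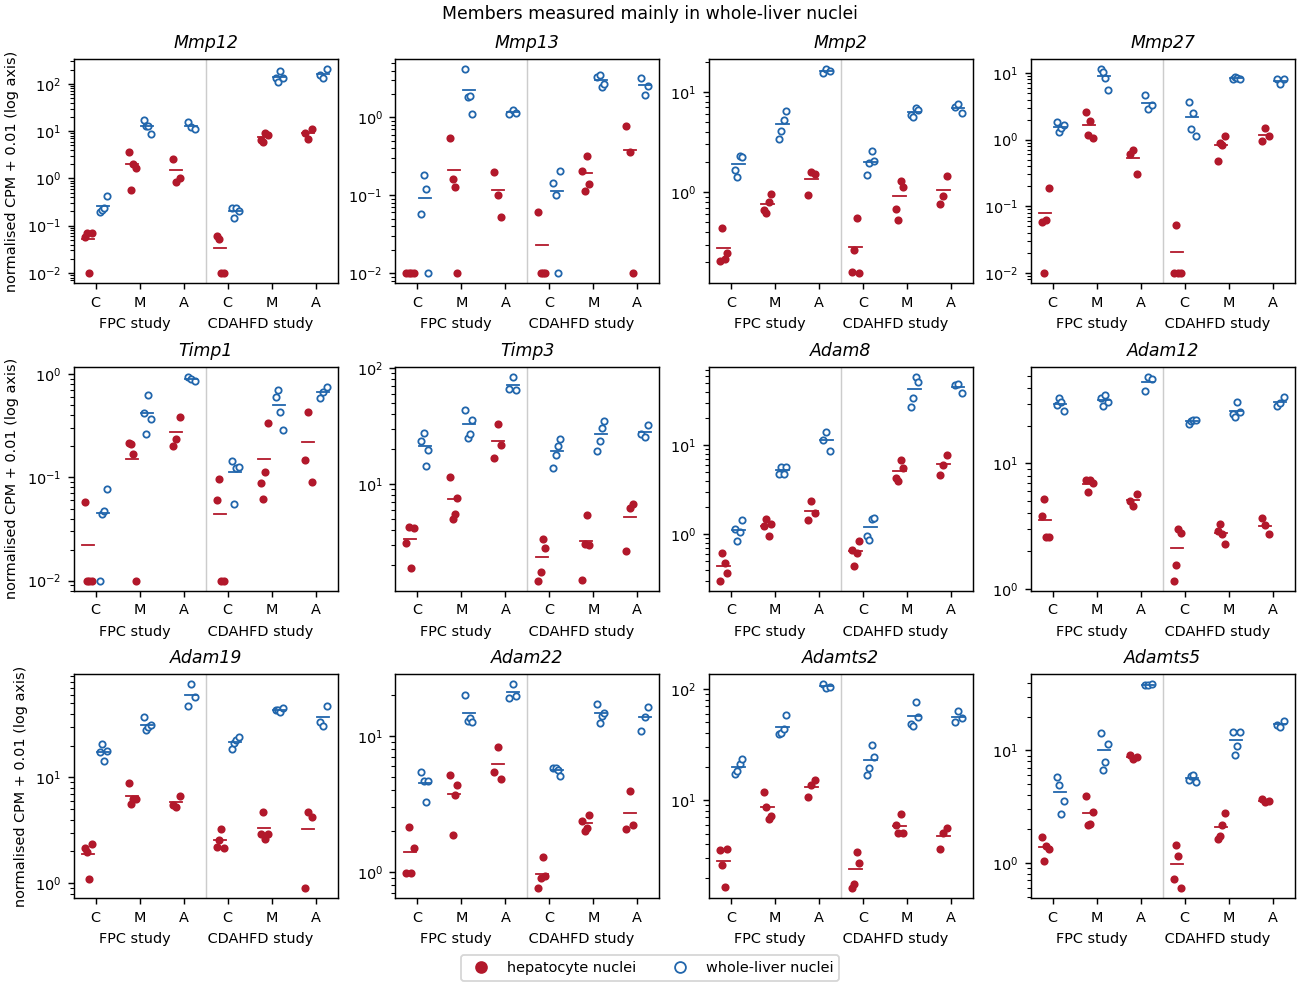
Normalised CPM (plus 0.01, log axis) of 12 members measured mainly in whole-liver nuclei, drawn as in the plot of members that rose in hepatocyte nuclei. For all 12, the mean of whole-liver nuclei (open points) exceeds that of hepatocyte nuclei (filled points) in every group; Mmp12 in CDAHFD whole-liver nuclei is below 0.3 in each control mouse and above 100 in each mild and advanced mouse.

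Of the inhibitors, Timp2, which blocks MMPs and also takes part in the activation of pro-Mmp2 by Mmp14, was measured in hepatocyte nuclei of the FPC study at 0.67, 0.776, 1.32 and 1.95 in control, 5.41, 5.53, 5.64 and 6.74 in mild and 15.5, 21.3 and 29.1 in advanced mice. The groups did not overlap, and the fitted log2 difference was 4.36 ± 0.33; this rise had been singled out before and is given as a description. In CDAHFD hepatocyte nuclei Timp2 was 1.07, 1.11, 1.81 and 2.03 in control, 2.65, 3.35, 6.32 and 6.47 in mild and 8.91, 9.99 and 10.3 in advanced mice (2.72 ± 0.35, adjusted p = 4.1e-05), and after subtraction of carried-over RNA it was no longer called (log2 2.46, adjusted p = 0.072). Whole-liver nuclei of advanced mice held 36, 43.1 and 47.5 under FPC and 40.2, 41.9 and 42.8 under CDAHFD. Hepatocyte nuclei held 18.6% ± 8.31 of the whole-liver level in FPC control (n = 4) and 52.2% ± 14.1 in FPC advanced mice (n = 3), and 18.7% ± 5.37 and 23.4% ± 1.19 under CDAHFD. Timp2 and Timp3 each overlap another gene in their bodies.

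Timp3, bound to matrix and active against MMPs, Adam17 and ADAMTS enzymes, gave 1.85, 3.05, 4.13 and 4.21 in control, 5.01, 5.49, 7.57 and 11.4 in mild and 16.6, 21.5 and 32.7 in advanced mice in FPC hepatocyte nuclei (2.96 ± 0.35, adjusted p = 1.8e-05). In CDAHFD hepatocyte nuclei it was 1.46, 1.72, 2.78 and 3.31 in control and 2.61, 6.22 and 6.73 in advanced mice (1.20 ± 0.45, adjusted p = 0.037), a call lost without control mouse Control_9862 or Control_9867 or advanced mouse Advanced_9896 or Advanced_10104, and after subtraction (adjusted p = 0.34). Whole-liver Timp3 rose in FPC mice by 1.73 ± 0.22 (adjusted p = 2.3e-05) and was not called in CDAHFD mice (0.49 ± 0.22, adjusted p = 0.07). Timp1, the inhibitor most used as a fibrosis marker, was low throughout nuclear RNA, at 0, 0.0345, 0.037 and 0.0681 in control and 0.847, 0.898 and 0.937 in advanced mice of FPC whole-liver nuclei, a ratio of 27.2 from 80 and 3 counts (95% counting interval 8.97 to 135). In CDAHFD whole-liver nuclei it was at 0.0448, 0.113, 0.118 and 0.134 in control and 0.577, 0.664 and 0.74 in advanced mice (2.59 ± 0.46, adjusted p = 0.00041). In hepatocyte nuclei it had 20 counts over 3 advanced and 1 count over 4 control FPC libraries and did not pass the filter. Timp4 had 5 counts in all libraries.

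Adamts16, Adamts9, Adamts15, Adamts1 and Adamts14 rose in hepatocyte nuclei under both diets. Adamts16 was at 0.567, 0.63, 0.659 and 1.1 in control, 8.63, 11.9, 13.8 and 20.7 in mild and 60.3, 64.1 and 109 in advanced mice in FPC hepatocyte nuclei. Under CDAHFD the hepatocyte level was 0.804, 1.08, 1.16 and 1.81 in control, 4.24, 5.97, 15.7 and 16.7 in mild and 20.8, 32 and 32.3 in advanced mice. No mild or advanced library overlapped control under either diet, and FPC advanced mice lay above all others. The log2 changes in advanced mice were 6.84 ± 0.37 (adjusted p = 2.1e-08) and 4.55 ± 0.49 (adjusted p = 1.7e-05). In advanced mice the hepatocyte level was 176% ± 15.8 (SD, n = 3) of the whole-liver level under FPC and 152% ± 14.2 under CDAHFD. The summed hepatocyte markers stood at 138% and 173%. The difference between the fractions was not called under either diet in the fits that do not pair the libraries of a mouse. Whole-liver nuclei rose by 5.24 and 3.47 (log2).

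Adamts9, which cuts versican and aggrecan, was at 5.1, 6.53, 6.9 and 8.09 in control, 30.3, 35.2, 47.7 and 48.7 in mild and 145, 147 and 196 in advanced mice in FPC hepatocyte nuclei. The CDAHFD hepatocyte nuclei held 3.13, 4.06, 4.15 and 4.17 in control, 18, 19.3, 37.4 and 39.1 in mild and 45.7, 68.1 and 71 in advanced mice, with log2 changes of 4.73 ± 0.22 (adjusted p = 6.9e-09) and 4.01 ± 0.30 (adjusted p = 1.3e-06). The 3 groups of each study did not overlap. Whole-liver nuclei of FPC mice gave 21.3, 22.8, 27.3 and 29.6 in control and 152, 155 and 183 in advanced mice, so the whole-liver level was far above that of hepatocyte nuclei in control mice and level with it in advanced mice. Adamts15, of the same proteoglycan-cutting branch, gave 0.339, 0.55, 0.567 and 0.719 in control and 12, 25.5 and 45.1 in advanced mice of FPC hepatocyte nuclei (5.79 ± 0.43, adjusted p = 3e-07) and 0, 0.44, 0.653 and 0.744 in control and 9.46, 9.69 and 10.8 in advanced mice of CDAHFD hepatocyte nuclei (4.51 ± 0.66, adjusted p = 0.00013). Adamts1, the third of that branch, gave 4.02, 4.48, 5.27 and 5.68 in control, 15.7, 20.2, 25.7 and 34.9 in mild and 20.9, 32.8 and 34 in advanced mice in FPC hepatocyte nuclei, where mild and advanced mice overlapped. In CDAHFD hepatocyte nuclei, where they did not, it gave 3.86, 4.6, 5.37 and 5.98 in control, 21.1, 30.4, 34 and 39.1 in mild and 46.6, 71.7 and 89.6 in advanced mice. Its log2 changes in advanced mice were 2.71 ± 0.27 (adjusted p = 3.5e-06) and 3.82 ± 0.26 (adjusted p = 5.7e-07).

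Adamts14, which removes the amino-terminal propeptide of procollagen, gave 0.361, 0.419, 0.727 and 1.04 in control, 3, 3.18, 3.92 and 4.15 in mild and 8.88, 19.5 and 23.4 in advanced mice in FPC hepatocyte nuclei. The CDAHFD hepatocyte nuclei gave 0.472, 0.502, 0.684 and 1.08 in control, 3.73, 9.09, 9.21 and 10.9 in mild and 19.5, 24.4 and 29.1 in advanced mice. Control, mild and advanced mice were separate in both studies, and the log2 changes in advanced mice were 4.88 ± 0.40 (adjusted p = 6e-07) and 5.20 ± 0.38 (adjusted p = 8.8e-07). The other procollagen amino-propeptidases, Adamts2 and Adamts3, were measured mainly in whole-liver nuclei. Adamts2 gave 17.1, 18.1, 21.2 and 23.6 in control and 103, 105 and 109 in advanced mice of FPC whole-liver nuclei (2.37 ± 0.15, adjusted p = 1e-07), and hepatocyte nuclei of advanced mice held 12.5% ± 2.36 of that. Called in FPC hepatocyte nuclei before subtraction (2.33 ± 0.28, adjusted p = 2e-05), it was not called after it (log2 0.93, adjusted p = 0.7). Adamts3 rose in whole-liver nuclei by 1.35 ± 0.21 (adjusted p = 0.00015) and 0.89 ± 0.18 (adjusted p = 0.001).

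After subtraction of carried-over RNA, the log2 changes in FPC hepatocyte nuclei were 7.07 for Adamts16, 5.38 for Adamts9, 6.30 for Adamts14, 6.27 for Adamts15 and 2.88 for Adamts1, and all 5 passed the test (largest adjusted p = 1.7e-05). All 5 also passed in CDAHFD hepatocyte nuclei (largest adjusted p = 0.00022). Adamts14 in control hepatocyte nuclei was not far above the share subtracted, so its larger change after subtraction rests on small remainders in control mice.

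Among the other ADAMTS genes, Adamts5, an aggrecan-cutting enzyme, gave 2.7, 3.54, 4.9 and 5.83 in control and 37.9, 38.5 and 38.5 in advanced mice of FPC whole-liver nuclei (3.14 ± 0.27, adjusted p = 8.2e-07) and rose by 1.56 (log2) in CDAHFD mice. In hepatocyte nuclei it rose by 2.79 ± 0.25 (adjusted p = 1.6e-06) in FPC mice, at 22.8% ± 1.17 of the whole-liver level. Adamts4, of the same activity, rose in whole-liver nuclei by 3.04 ± 0.31 (adjusted p = 4.2e-06) and 3.0 ± 0.43 (adjusted p = 6.7e-05) from control means of 0.233 and 0.2. Adamts10, linked to fibrillin, and Adamts12 were called higher in both fractions of both studies, by 1.60 and 1.68 (log2) in FPC whole-liver nuclei, where advanced mice held 72.8 to 84.8 and 46.4 to 59.9. After subtraction of carried-over RNA, Adamts12 was not called in FPC hepatocyte nuclei (log2 0.88, adjusted p = 0.54) and did not pass the filter in CDAHFD ones, and Adamts10 was called in FPC (adjusted p = 0.023) and not in CDAHFD hepatocyte nuclei (log2 0.92, adjusted p = 0.077). The CDAHFD hepatocyte call of Adamts12 was also lost without control mouse Control_9862 or advanced mouse Advanced_9896 or Advanced_10104. Adamts13, the protease of von Willebrand factor known from stellate cells, was lower in advanced CDAHFD whole-liver nuclei (-0.84 ± 0.25, adjusted p = 0.013; not called without advanced mouse Advanced_10104 or with scaling by library totals only) and not in FPC (-0.04 ± 0.17, adjusted p = 0.84). Adamts6, with control means of 69 in FPC and 73 in CDAHFD hepatocyte nuclei, rose by 0.87 ± 0.27 (adjusted p = 0.018) in FPC hepatocyte nuclei, a call lost without advanced mouse Advanced_6880, with no call in CDAHFD mice (0.04 ± 0.38, adjusted p = 0.93). Adamts7 and Adamts17 were not called in any advanced-against-control comparison, and Adamts7 rose in mild CDAHFD hepatocyte nuclei (1.04 ± 0.27, adjusted p = 0.0068).

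The sheddases Adam10 and Adam17 rose in whole-liver nuclei and did not rise in hepatocyte nuclei under CDAHFD. Adam17 in FPC mice gave 36.9, 37.6, 39.3 and 43.5 in control and 33.3, 34.9 and 40.2 in advanced mice of hepatocyte nuclei and 36, 36.1, 37.6 and 40.1 in control and 51.3, 51.4 and 52.1 in advanced mice of whole-liver nuclei, with log2 changes of 0.00 ± 0.11 (adjusted p = 1) and 0.43 ± 0.11 (adjusted p = 0.0041). In CDAHFD mice these changes were -0.23 ± 0.14 (adjusted p = 0.15) and 0.60 ± 0.12 (adjusted p = 0.00074). Adam10 in CDAHFD mice gave 132, 141, 141 and 144 in control and 103, 110.0 and 125 in advanced mice of hepatocyte nuclei (-0.29 ± 0.10, adjusted p = 0.022) and 124, 125, 129.7 and 137 in control and 156, 158 and 193 in advanced mice of whole-liver nuclei (0.34 ± 0.11, adjusted p = 0.02). The fall in hepatocyte nuclei became a rise of 0.20, not called, with scaling by library totals only, and its call was lost without advanced mouse Advanced_9896 or Advanced_10104 and with only the 2 groups fitted (adjusted p = 0.076). The rise in whole-liver nuclei was not called with only the 2 groups fitted (adjusted p = 0.055) or without advanced mouse Advanced_10104 (adjusted p = 0.093). The difference between the fractions was itself tested, and is given below. Adam17 overlaps another gene in its body, so its reads may be shared. Adam9, a further sheddase, stayed between 51.3 and 74.8 in the means of all hepatocyte groups, with no call against control.

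Adam33 and Adam15 rose in hepatocyte nuclei under both diets. Adam33, known as an asthma susceptibility gene of mesenchymal cells, gave 0.773, 0.958, 1.26 and 1.65 in control, 3.7, 4.19, 6.88 and 7.31 in mild and 11.8, 17.6 and 36.9 in advanced mice in FPC hepatocyte nuclei (4.37 ± 0.42, adjusted p = 2.9e-06). Under CDAHFD hepatocyte Adam33 was at 0.644, 0.653, 1.08 and 1.27 in control, 4.55, 4.82, 5.6 and 7.84 in mild and 7.06, 7.81 and 8.67 in advanced mice (3.12 ± 0.29, adjusted p = 4.2e-06). Advanced and control mice were far apart, and advanced hepatocyte nuclei held 138% ± 24.1 and 92.2% ± 7.7 of the whole-liver level. Adam15, metargidin, gave 0.103, 0.183, 0.24 and 0.291 in control and 1.34, 2.19 and 2.82 in advanced mice of FPC hepatocyte nuclei (3.44 ± 0.41, adjusted p = 2e-05), 31.6% ± 12.1 of the level in whole-liver nuclei, where it rose by 2.62. Both calls held after subtraction (FPC adjusted p = 1.7e-05 for Adam33 and 0.0038 for Adam15).

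Adam8, known from myeloid cells, rose most of the ADAMs in whole-liver nuclei. Under CDAHFD its level there was 0.851, 0.935, 1.47 and 1.53 in control, 27.2, 34.4, 51.8 and 58.7 in mild and 38.6, 47.8 and 49.3 in advanced mice (5.19 ± 0.30, adjusted p = 3.7e-08), and under FPC 0.828, 1.04, 1.14 and 1.43 in control, 4.75, 4.77, 5.67 and 5.71 in mild and 8.61, 11.4 and 13.9 in advanced mice (3.35 ± 0.21, adjusted p = 8.1e-08). Hepatocyte nuclei of advanced mice held 16.5% ± 3.78 of that under FPC and 14% ± 5.45 under CDAHFD. Called there under both diets, Adam8 was not called after subtraction of carried-over RNA in FPC mice (log2 0.99, adjusted p = 0.48). In CDAHFD hepatocyte nuclei it then did not pass the filter. Adam12 and Adam19, the meltrins, were also mainly outside the tagged nuclei, and rose in FPC whole-liver nuclei by 0.55 ± 0.12 (adjusted p = 0.0015) and 1.75 ± 0.16 (adjusted p = 1.5e-06). Their calls in FPC hepatocyte nuclei (0.65 and 1.75) turned to -0.85 and -4.50, not called, after subtraction of carried-over RNA, and that of Adam12 was lost in 10 of the 11 fits that leave out 1 library.

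Adam11, Adam22 and Adam23 lack the catalytic site and are known as neuronal surface proteins. Adam11 rose under FPC and fell under CDAHFD in hepatocyte nuclei. FPC hepatocyte nuclei gave 22.3, 29, 29.9 and 34.2 in control, 38.1, 70.3, 71.6 and 93.9 in mild and 28.7, 70.6 and 76.6 in advanced mice. CDAHFD hepatocyte nuclei gave 18.1, 27.8, 31.7 and 32.3 in control, 18.7, 19.1, 22.6 and 28.1 in mild and 9.32, 16.6 and 17.6 in advanced mice. The advanced FPC libraries overlapped control, with a log2 change of 1.15 ± 0.33 (adjusted p = 0.013) that was not called without advanced mouse Advanced_6880 or Advanced_6904, while the mild FPC libraries all lay above control (1.33 ± 0.31, adjusted p = 0.0062). Under CDAHFD the change was -0.90 ± 0.26 (adjusted p = 0.0093), and in whole-liver nuclei -1.12 ± 0.28 (adjusted p = 0.0043); neither was called with scaling by library totals only (adjusted p = 0.19 and 0.063). Adam22 rose in whole-liver nuclei by 2.19 ± 0.20 (adjusted p = 1.3e-06) and 1.25 ± 0.16 (adjusted p = 2.8e-05). Its calls in hepatocyte nuclei were lost after subtraction of carried-over RNA (FPC log2 2.25, adjusted p = 0.092, and CDAHFD log2 1.05, adjusted p = 0.41). Adam23 was high in whole-liver nuclei, 99 ± 12.5 (SD) in FPC control mice, and was lower in advanced than in mild mice there (-0.68 ± 0.19, adjusted p = 0.022 in FPC and -0.58 ± 0.13, adjusted p = 0.037 in CDAHFD mice). Of the low-count ADAMs known from testis, Adam5, Adam2, Adam21 and Adam32 had hepatocyte group means of at most 3.98, and Adam1a is uncertain because it overlaps Adam1b and Tmem116. Adam32 rose in CDAHFD hepatocyte nuclei (1.75 ± 0.26, adjusted p = 0.00012). Adam28, a catalytically active ADAM known from lymphocytes, had 15 counts over all libraries and group means of at most 0.0418.

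Hepatocyte and whole-liver nuclei of the same diet and stage were then compared directly. In control mice 22 of 51 tested members were lower in hepatocyte nuclei under FPC and 23 of 53 under CDAHFD (background 16.2% and 16.4% lower, 17.5% and 31% in either direction). In advanced mice 27 of 51 were lower and 0 higher under FPC (background 17.7% and 4.83%), and 28 of 53 were lower and 6 higher under CDAHFD (background 23% and 20.1%). In mild mice 27 of 51 were lower and 0 higher under FPC (background 19% and 7.19%, 26.2% in either direction), and 29 of 53 and 4 under CDAHFD (background 27.6% and 23.1%). These fits do not pair the libraries of a mouse. With the mouse as a replicate block, FPC control, mild and advanced mice gave 1 higher and 26 lower, 3 higher and 30 lower and 3 higher and 29 lower, and CDAHFD mice 1 higher and 26 lower, 7 higher and 30 lower and 4 higher and 26 lower, where 40.2%, 50.4% and 44.8% of all genes were called in FPC and 43.2%, 58.5% and 51.4% in CDAHFD mice. The exchange of mice Control_9862 and Control_9867 gave 5 higher and 27 lower in CDAHFD control and 8 higher and 29 lower in CDAHFD advanced mice (56.9% and 61.3% of all genes called). Of all genes called in FPC advanced mice, 21.5% were higher without and 49.6% with the block, and in FPC control mice 7.68% and 53.2%. Scaling moved this share too: in CDAHFD control mice it was 47.1%, 12.3% with DESeq2's size factors and 3.69% with library totals only. The median of all genes in these comparisons of control mice was 0.11 (log2) in FPC and 0.20 in CDAHFD. The members furthest below whole liver in advanced FPC mice were Mmp25 (-3.78 ± 0.61, adjusted p = 9.2e-05), Mmp2 (-3.63 ± 0.27, adjusted p = 2.4e-09), Adam19 (-3.41 ± 0.23, adjusted p = 9.6e-10), Adam23 (-3.40 ± 0.37, adjusted p = 2.8e-07), Mmp13 (-3.31 ± 0.75, adjusted p = 0.0027) and Adam12 (-3.17 ± 0.20, adjusted p = 8.1e-10). Those above it in advanced CDAHFD mice were Adam34, Adam11, Adam1a, Adamts7 (1.28 ± 0.32, adjusted p = 0.0034), Mmp24 (1.03 ± 0.37, adjusted p = 0.031) and Adamts1 (0.94 ± 0.29, adjusted p = 0.012). The Adam34 call rests on few counts, 24, 6 and 7 in hepatocyte and 5, 6 and 10 in whole-liver libraries of mice Advanced_9845, Advanced_9896 and Advanced_10104. With the block, 28 of the 34 calls in advanced CDAHFD mice were kept.

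Whether the change with disease differed between the fractions was tested by an interaction term, the change in hepatocyte nuclei minus that in whole-liver nuclei. In FPC mice 4 of 51 members were called (background 3.82%, 2.83% higher and 0.984% lower): Adamts9 (1.93 ± 0.27, adjusted p = 0.00013), Adamts14 (2.33 ± 0.44, adjusted p = 0.0021) and Timp2 (1.53 ± 0.35) rose more in hepatocyte nuclei, and Adam17 (-0.56 ± 0.15, adjusted p = 0.041) rose more in whole-liver nuclei. The Adam17 call was lost with DESeq2's size factors (adjusted p = 0.078) and with library totals only (adjusted p = 0.063). Without both libraries of advanced mouse Advanced_6880, 2 were called. In CDAHFD mice 8 of 53 were called (background 10.2%). Adamts14 (3.05 ± 0.46, adjusted p = 0.00022), Adamts9 (1.81 ± 0.34, adjusted p = 0.0016), Adamts1 (1.51 ± 0.39, adjusted p = 0.017), Adam33 (1.46 ± 0.41, adjusted p = 0.025) and Mmp27 had the larger change in hepatocyte nuclei, and Adam8 (-1.98 ± 0.46, adjusted p = 0.0079), Adam17 (-0.93 ± 0.17, adjusted p = 0.0014) and Adam10 (-0.73 ± 0.13, adjusted p = 0.0012) the higher change in whole-liver nuclei. The Mmp27 call rests on 1 count over 4 control and 63 over 3 advanced CDAHFD hepatocyte libraries. After subtraction of carried-over RNA Mmp27 no longer passed the filter in hepatocyte nuclei of either diet.

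With the mouse as a replicate block, which pairs both libraries of a mouse, 10 members were called in FPC mice, the 4 above and Adamts16 (1.43, adjusted p = 0.00079), Adamts15 (1.80, adjusted p = 0.00075), Adamts1 (0.80, adjusted p = 0.0045), Timp3 (1.07, adjusted p = 0.0024), Adam33 (1.09, adjusted p = 0.047) and Adam8 (-1.28, adjusted p = 0.042). In CDAHFD mice the blocked fit called 10, adding Adamts15 (2.12, adjusted p = 0.013) and Adamts16 (1.0, adjusted p = 0.0078), and 13 with the partners of mice Control_9862 and Control_9867 exchanged. Of all genes the blocked fits called 9.45% in FPC and 18% in CDAHFD mice, and 29.6% with the exchange.

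**Figure D4:**
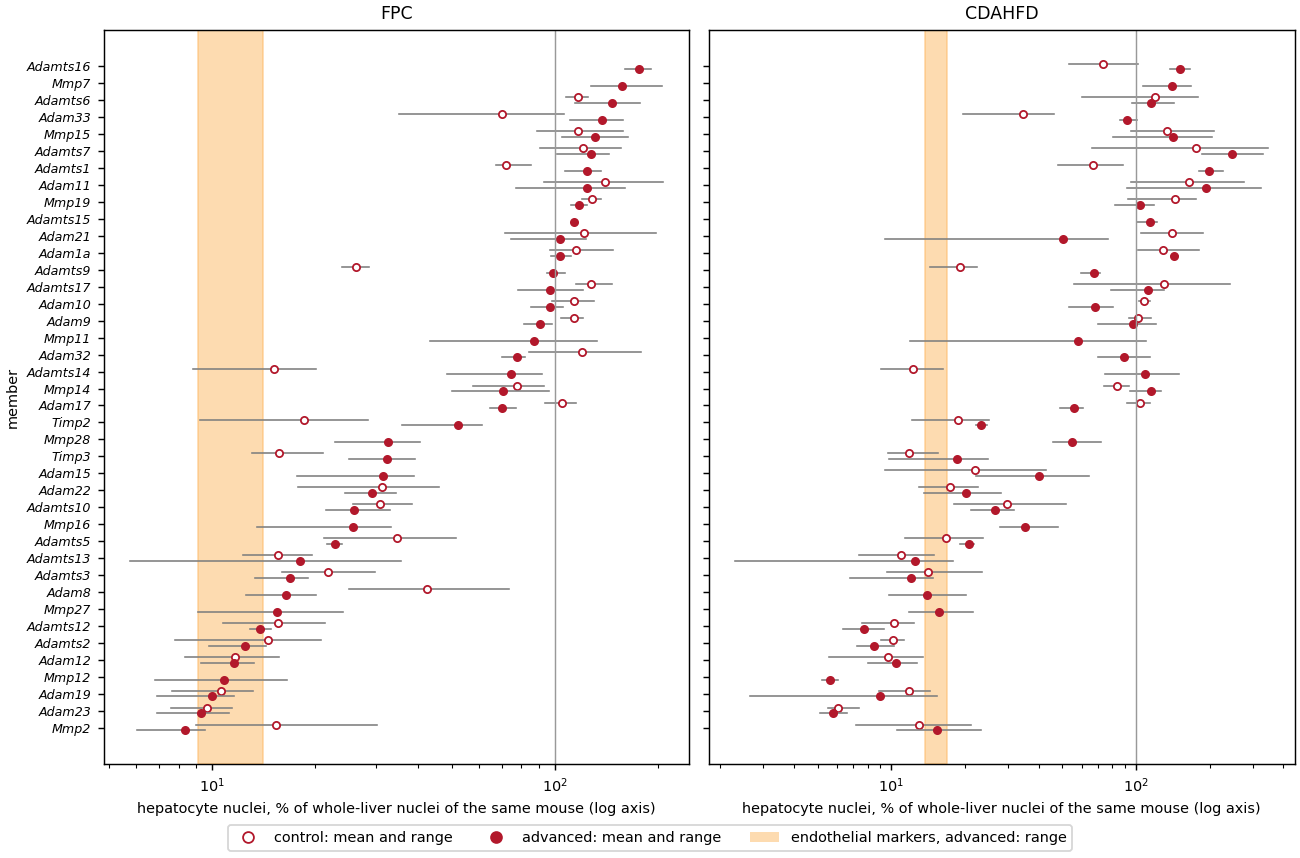
Level in hepatocyte nuclei as a percentage of whole-liver nuclei of the same mouse (log axis), 1 panel per diet. The 40 members shown had at least 20 whole-liver counts and a hepatocyte count in every advanced mouse of both diets. Control values are drawn where the same holds for the control mice. Mmp13, Mmp23, Mmp25 and Adamts4 lacked a hepatocyte count in an advanced CDAHFD mouse and are left out. Points are means over mice, lines their range, and the band is the range of the summed endothelial markers in advanced mice. Adamts9 moves from 26.3% ± 2.1 (SD) in FPC control to 99.1% ± 6.89 in advanced mice, while Mmp12 is at 10.8% ± 5.07 in FPC and 5.6% ± 0.426 in CDAHFD advanced mice and Adam23 at 9.26% ± 2.18 and 5.77% ± 0.75, below the band under CDAHFD.

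Within a mouse, the level of Adamts14 in hepatocyte nuclei was 15.2% ± 5.05 (SD, n = 4) of the whole-liver level in FPC control and 74.7% ± 22.9 (n = 3) in FPC advanced mice, and 12.3% ± 3.07 and 109% ± 38.5 under CDAHFD. Adamts9 was at 19.2% ± 3.46 and 67.4% ± 6.56 in CDAHFD control and advanced mice, and Adamts1 at 66.5% ± 16.6 and 198% ± 25.7. In the 2 CDAHFD control mice left without Control_9862 and Control_9867, the values were 11% and 16.3% for Adamts14, 19.1% and 20.7% for Adamts9 and 63.7% and 66.1% for Adamts1. For scale, the hepatocyte markers stood at 138% and 173% in advanced FPC and CDAHFD mice. In bulk nuclei, fewer cells of a type and less RNA per cell cannot be told apart.

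Much of the change was present in mild mice. Against control, 27 of 45 members rose in FPC and 25 of 45 in CDAHFD hepatocyte nuclei of mild mice (background 21.8% and 29.6% higher), with 1 and 2 lower (background 11.3% and 26.7% lower, 33.1% and 56.3% in either direction). After subtraction of carried-over RNA 10 of 38 members tested were called in mild FPC and 16 of 35 in mild CDAHFD hepatocyte nuclei, and 18 and 18 in advanced mice. Of all genes in those fits, 19% and 50.9% were called in mild and 38.8% and 54.8% in advanced mice. In whole-liver nuclei 29 of 50 and 32 of 51 rose (background 25% and 27.7% higher, 43.2% and 52.2% in either direction). Between mild and advanced mice, 13 members were higher and 2 lower in FPC hepatocyte nuclei of advanced mice (background 12.7% and 7.49%, 20.2% in either direction), and 25 higher and 3 lower in FPC whole-liver nuclei (background 13.3% and 8.98%, 22.3% in either direction). Under CDAHFD, 3 and 2 members were called in hepatocyte and whole-liver nuclei (background 2.82% and 1.88%; 1.3% and 0.83% higher); leaving out single libraries gave 0 to 5 and 0 to 3. In hepatocyte nuclei none was called without advanced mouse Advanced_9896 or mild mouse Mild_9852, 1 without advanced mouse Advanced_9845 or Advanced_10104 or mild mouse Mild_10102 or Mild_9853, and 5 without control mouse Control_10113. In whole-liver nuclei none was called without advanced mouse Advanced_9845 or Advanced_9896 or mild mouse Mild_9852 or Mild_9853, and 1 without mild mouse Mild_10102 or control mouse Control_9862 or Control_10110. The 3 in hepatocyte nuclei were Adamts1 (1.16 ± 0.24, adjusted p = 0.03), Adamts14 (1.56 ± 0.31, adjusted p = 0.025) and Mmp28 (2.27 ± 0.50, adjusted p = 0.038).

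The largest steps from mild to advanced FPC hepatocyte nuclei, beside the Mmp7 values above, were those of Adamts16 (2.53 ± 0.28, adjusted p = 6e-05), Adamts15 (2.36 ± 0.35, adjusted p = 0.00043), Mmp11 (2.33 ± 0.56, adjusted p = 0.01), Adamts14 (2.32 ± 0.33, adjusted p = 0.00038), Mmp24 (2.06 ± 0.52, adjusted p = 0.014), Adamts9 (2.04 ± 0.20, adjusted p = 2.2e-05) and Adam33 (2.04 ± 0.37, adjusted p = 0.0019). Adam23 (-1.45 ± 0.38, adjusted p = 0.018) and Mmp27 were lower in advanced than in mild mice. In FPC whole-liver nuclei Mmp2 (1.75 ± 0.21, adjusted p = 0.00013), Adamts5 (1.92 ± 0.25, adjusted p = 0.00022) and Adamts2 (1.23 ± 0.15, adjusted p = 0.00012) were higher in advanced than in mild mice, and Mmp12 was not called (0.00 ± 0.22, adjusted p = 1).

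The change in CDAHFD advanced mice minus that in FPC advanced mice was tested in each fraction. In hepatocyte nuclei 5 of 46 members differed, a share near the background of 11.9%. Those were Adamts16 (-2.24 ± 0.65, adjusted p = 0.03), Adam11 (-2.0 ± 0.45, adjusted p = 0.0092) and Timp2 (-1.57 ± 0.49), with the higher change under FPC, and Adam32 (1.17 ± 0.36, adjusted p = 0.041) and Adam9 (0.64 ± 0.19, adjusted p = 0.034) with the higher change under CDAHFD. Leaving out single libraries gave 1 to 7 calls: 1 without FPC control mouse Control_6816, 2 without FPC control mouse Control_6952 or Control_6953, FPC advanced mouse Advanced_6880, CDAHFD advanced mouse Advanced_9845 or CDAHFD control mouse Control_10110 or Control_10113, and 3 without CDAHFD advanced mouse Advanced_9896. In whole-liver nuclei 11 of 52 differed (background 4.67%). Mmp12 (3.94 ± 0.57, adjusted p = 0.00086) and Adam8 (1.83 ± 0.38, adjusted p = 0.0073) had the larger rise under CDAHFD, as did Mmp24, which had no count in CDAHFD control whole-liver nuclei. Adam11 (-2.12 ± 0.53), Adamts5 (-1.59 ± 0.33), Adam33 (-1.50 ± 0.42), Mmp2 (-1.30 ± 0.30), Timp3 (-1.25 ± 0.33), Adamts2 (-1.15 ± 0.28), Adam19 (-1.03 ± 0.23) and Adam22 (-0.95 ± 0.26) had the higher change under FPC (adjusted p from 0.0076 to 0.046). Without CDAHFD advanced mouse Advanced_9845, 6 differed, and 7 without FPC advanced mouse Advanced_6880 or FPC control mouse Control_6952. The diets also differ in length, 20 against 7 weeks, and the diet and its length cannot be told apart. Of 29 members higher in advanced FPC hepatocyte nuclei and 25 in advanced CDAHFD ones, 23 were shared, 79.3% and 92% of each list. Over all genes 2593 were shared of 3577 and 4028, 72.5% and 64.4%.

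**Figure D5:**
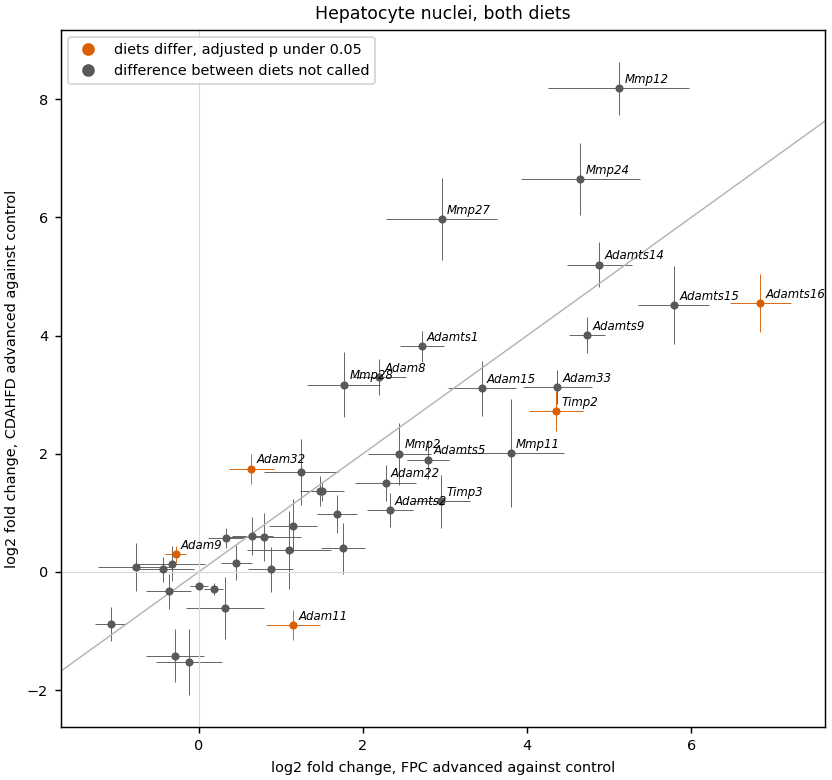
Log2 fold change in hepatocyte nuclei of advanced against control mice under FPC (x axis) and CDAHFD (y axis) for each member tested under both, with standard errors and the line of equal change; orange points are members whose change differed between the diets. Adam11 lies right of 0 under FPC and below 0 under CDAHFD, and Adamts16 and Timp2 lie below the line; Mmp7 is left out because its control mice had no count.

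Genes that work with these proteases were followed as 6 lists. For all 6, the shares of all genes called higher and lower are those given above for hepatocyte nuclei of advanced against control mice. Of the matrix substrates of MMPs and ADAMTS enzymes, 12 rose and 1 fell of 14 tested in FPC hepatocyte nuclei and 9 rose and 1 fell of 14 tested in CDAHFD ones (median log2 2.15 and 1.55, beside 0.00 and 0.00 over all genes). They included Nid1, nidogen of the basement membrane (4.33, adjusted p = 7.6e-07 in FPC and 3.80, adjusted p = 1.5e-07 in CDAHFD hepatocyte nuclei), Fbln2, a fibulin (4.46, adjusted p = 2.2e-07, and 3.73, adjusted p = 7.1e-05), Fbn2, a fibrillin (4.34, adjusted p = 1.2e-05, and 3.80, adjusted p = 7.5e-05), and Hspg2, perlecan (2.57, adjusted p = 2.1e-05, and 2.38, adjusted p = 1e-05). In whole-liver nuclei of advanced mice 14 of 15 matrix substrates rose and 1 fell under FPC (median log2 2.19). Under CDAHFD 10 rose and 1 fell (median 1.09). In advanced FPC mice 12 of 15 were lower and 0 higher in hepatocyte than in whole-liver nuclei (median log2 -3.11, 0.06 over all genes). Under CDAHFD 11 were lower and 1 higher (-2.20, 0.07 over all genes). The part of carried-over RNA in the rises of this list was not tested. Of the ADAMTS-like genes, secreted relatives without protease domain, 5 rose and 0 fell of 6 tested in FPC and 6 rose and 0 fell of 6 tested in CDAHFD hepatocyte nuclei, led by Thsd4 (5.11, adjusted p = 4.4e-09, and 3.11, adjusted p = 6.4e-05) and Adamtsl4 (3.50, adjusted p = 7.5e-06, and 4.73, adjusted p = 7.6e-07).

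Of the regulators of sheddases, 4 rose and 1 fell of 8 tested in FPC and 4 rose and 1 fell of 8 tested in CDAHFD hepatocyte nuclei (median log2 0.71 and 1.01). Tspan15, a tetraspanin partner of Adam10, rose by 4.53 (adjusted p = 9.4e-06) and 5.19 (adjusted p = 2.8e-08). Rhbdf1 and Rhbdf2, the iRhoms that carry Adam17 to the surface, rose by 2.59 (adjusted p = 1.2e-05) and 1.14 (adjusted p = 0.0012) in FPC and by 2.91 (adjusted p = 3.1e-06) and 2.02 (adjusted p = 2.3e-06) in CDAHFD hepatocyte nuclei, and Tspan33, another Adam10 partner, fell by 0.63 and 1.73. Of the sheddase substrates, 13 rose and 7 fell of 28 tested and 14 rose and 6 fell of 28 tested (median log2 0.30 and 0.61). Nrg1 (5.80, adjusted p = 6.9e-09, and 5.34, adjusted p = 2.9e-07) and Areg (6.35, adjusted p = 8.1e-07, and 7.56, adjusted p = 9.3e-07), ligands of the EGF receptor family, App (3.43, adjusted p = 9e-09, and 3.51, adjusted p = 2.4e-07) and the adhesion molecules Vcam1 (4.70, adjusted p = 2.4e-07, and 4.01, adjusted p = 3.7e-07) and Cd44 (4.09, adjusted p = 1.8e-06, and 3.57, adjusted p = 1.7e-07) were the substrates with the smallest adjusted p-values.

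Of the enzymes of the plasminogen and related cascades, 7 rose and 7 fell of 22 tested in FPC and 7 rose and 8 fell of 19 tested in CDAHFD hepatocyte nuclei. Their median log2 change was 0.04 and -0.17, beside 0.004 and -0.004 over all genes. Plat, the tissue plasminogen activator, had 2 counts over 4 control and 191 over 3 advanced FPC hepatocyte libraries and 1 and 275 counts in CDAHFD ones. Plg, plasminogen, a product of hepatocytes, changed by -1.84 (adjusted p = 1.1e-05) and -1.83 (adjusted p = 7e-06). Of the other inhibitors and surface regulators, 10 rose and 6 fell of 21 tested and 8 rose and 6 fell of 21 tested (median log2 0.39 and 0.25). Thbs1 (6.69, adjusted p = 1.3e-07, and 6.35, adjusted p = 8.4e-06), Spint1 (5.68, adjusted p = 3.8e-07, and 6.02, adjusted p = 2.7e-05) and Plaur, the urokinase receptor (4.64, adjusted p = 1.7e-06, and 5.62, adjusted p = 1.9e-06), rose, and Serpine2 (-3.12, adjusted p = 7.4e-07, and -3.88, adjusted p = 1.4e-05) fell. Reck, a membrane-anchored MMP inhibitor, changed by -2.11 (adjusted p = 0.0011) and -3.93 (adjusted p = 1.2e-06).

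Per kilobase of gene, the order of levels also changed. In FPC control hepatocyte nuclei Mmp19 led with 2.39 ± 0.231 normalised CPM per kilobase (SD, n = 4), followed by Adam11 (1.53 ± 0.262), Mmp15 (1.46 ± 0.266) and Adam10 (1.35 ± 0.122), which lay within each other's spread. Adam1a, at 1.63 ± 0.171, shares reads with its neighbours. Mmp19 overlaps another gene in its body, so its reads may be shared too. In FPC advanced mice Adamts1 (3.15 ± 0.776) and Adam11 (3.11 ± 1.38) led, and Mmp14 (1.99 ± 0.487), Mmp15 (1.85 ± 0.346), Mmp7 (1.72 ± 0.407) and Adam33 (1.7 ± 1.01) followed within 1 SD of each other. In CDAHFD advanced mice Adamts1 led with 7.46 ± 2.33, and Adam1a aside, the next was Mmp14 (2.75 ± 0.344), beyond the spread of both. In whole-liver nuclei of CDAHFD advanced mice Mmp12 led with 10.1 ± 2.33.

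In the authors' deposited table of hepatocyte comparisons, which holds 34 of the members, 14 are listed higher and 1 lower in FPC advanced against control mice at an adjusted p under 0.05, and 17 higher and 5 lower in CDAHFD. Over all 13144 rows of the authors' deposited table, 20.7% are higher and 23.2% lower in FPC and 26.7% and 29.1% in CDAHFD.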

How the data were processed

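Total nuclear RNA was sequenced from tagged hepatocyte nuclei and whole-liver nuclei of 22 mice (44 libraries), without selection for poly-A, so introns were read too. The count table holds raw counts per RefSeq identifier as the authors deposited it; reads were aligned with STAR 2.4.2a to mm10, per the submitters' processing notes, and the counting tool and strand setting are not given in the sources used here. The lengths in the authors' deposited table show that counting ran over the whole gene for 94.7% of its rows and for 33 of the 34 members it holds, so overlapping genes may share reads; this holds for 13 members, among them Timp1, Timp2, Timp3, Adam17, Adamts4, Mmp19, Mmp24 and Mmp28. The log2 fold changes and adjusted p-values in the authors' deposited table were made with DESeq2 1.24.0, per the submitters' processing notes.

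From the counts, edgeR 4.0.16 (R 4.3.3, limma 3.58.1) fitted each fraction and diet study over its 3 stages, the 2 fractions of a diet study together, and the 2 diet studies of a fraction together, with TMM scaling, filterByExpr, quasi-likelihood F-tests and Benjamini-Hochberg adjustment over all genes at 0.05. Standard errors are the size of the log2 fold change over the root of F. Levels are CPM on TMM-scaled totals over all 44 libraries. Scripts were tested on simulated data. Libraries of 1 group come from separate mice. Totals of 12135408 to 33063251 counts per library set the precision; intervals and the floor of 3 counts cover counting error only.

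The members, the lists of pathway and marker genes and the tests were chosen with earlier results of these data known. Genes named are a list chosen by role and, in each advanced-against-control comparison, other called members with a log2 change of at least 1, up to the 12 largest rises and 8 largest falls; for pathway lists, up to 4 genes per list by adjusted p, and, chosen after their values were seen, Tspan33, Plaur, Reck, Areg and Cd44 where only 1 diet had put them there. Alternatives were DESeq2 1.42.0, its size factors in edgeR, no filter and a stricter one, and only the groups compared. Others were single libraries left out (both libraries of a mouse in fits of both fractions), the mouse as a replicate block, and subtraction of carried-over RNA. Scaling by library totals only and an exchange of mice Control_9862 and Control_9867 in the block were added after seeing the data. The fractions of a mouse come from the same animal; in 20 of 22 mice the deviations of both libraries from their group means correlated best with each other, over 0.1. Promoter sequences are from RefSeq (GRCm38.p6).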

Additional observations from a re-analysis of the deposited data

Results flagged for a closer look

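Among 217 sets of 4 mice (a member in a control or mild group, with at least 100 counts over the group), 15 held a mouse apart from the other 3, its gap to the nearest filling more of the range than Dixon's 95% value for 4 samples (chance gives about 1 in 20 sets). Mmp14 was highest in mouse Control_10110 at 14.8 normalised CPM (others 10.4 to 10.9), Mmp15 was highest in mouse Control_9867 at 51.7 normalised CPM (others 36.3 to 37.3) and Adamts9 was lowest in mouse Control_9867 at 3.13 normalised CPM (others 4.06 to 4.17), all in hepatocyte nuclei of CDAHFD control mice. Adam15 was lowest in mouse Mild_9853 at 1.15 normalised CPM (others 1.62 to 1.7) and Adam19 was highest in mouse Mild_9853 at 4.71 normalised CPM (others 2.62 to 2.94), both in hepatocyte nuclei of CDAHFD mild mice. Adam23 was lowest in mouse Control_6952 at 6.18 normalised CPM (others 10.6 to 11.2), Adamts6 was highest in mouse Control_6852 at 101 normalised CPM (others 55.2 to 61.3) and Adamts13 was highest in mouse Control_6816 at 2.71 normalised CPM (others 1.68 to 1.77), all in hepatocyte nuclei of FPC control mice. Timp2 was highest in mouse Mild_6825 at 6.74 normalised CPM (others 5.41 to 5.64), Adam10 was lowest in mouse Mild_6886 at 114 normalised CPM (others 127 to 129.5) and Adamts12 was highest in mouse Mild_6825 at 10.4 normalised CPM (others 7 to 7.48), all in hepatocyte nuclei of FPC mild mice. Adamts7 was lowest in mouse Control_9867 at 15.9 normalised CPM (others 33.7 to 36.4) in whole-liver nuclei of CDAHFD control mice. Mmp14 was lowest in mouse Mild_6825 at 11 normalised CPM (others 18.7 to 19.7), Adam10 was highest in mouse Mild_6825 at 170.3 normalised CPM (others 126 to 132) and Adam22 was highest in mouse Mild_6825 at 20.1 normalised CPM (others 12.7 to 13.6), all in whole-liver nuclei of FPC mild mice. FPC mild mouse Mild_6825 holds 5 of these values, and CDAHFD control mouse Control_9867, whose libraries correlated with those of mouse Control_9862, holds 3.

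The change from control to advanced mice differed between fractions or diets for the following members. As hepatocyte minus whole-liver log2 change, the differences in FPC mice were Adam17 -0.56, Adamts14 2.33, Adamts9 1.93 and Timp2 1.53, and in CDAHFD mice Adam10 -0.73, Adam17 -0.93, Adam33 1.46, Adam8 -1.98, Adamts1 1.51, Adamts14 3.05 and Adamts9 1.81. As CDAHFD minus FPC log2 change, they were Adam11 -2.0, Adam32 1.17, Adam9 0.64, Adamts16 -2.24 and Timp2 -1.57 in hepatocyte nuclei, and Adam11 -2.12, Adam19 -1.03, Adam22 -0.95, Adam33 -1.50, Adam8 1.83, Adamts2 -1.15, Adamts5 -1.59, Mmp12 3.94, Mmp2 -1.30 and Timp3 -1.25 in whole-liver nuclei. For Mmp27 between fractions of CDAHFD mice (4.16) and Mmp24 between diets in whole-liver nuclei (5.0), a control group held 1 count or none, and the fitted size depends on the prior count and is no bound. The Timp2 differences touch a rise that had been singled out before.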

How the results depend on the processing

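Subtraction of carried-over RNA lowered the calls most, to 18 in FPC advanced, 18 in CDAHFD advanced, 10 in FPC mild and 16 in CDAHFD mild hepatocyte nuclei against control (30, 30, 28 and 27 before), and turned Adam12 to -0.85 and Adam19 to -4.50 in FPC hepatocyte nuclei; fewer members pass the filter after it. With scaling by library totals only, Adam10 in CDAHFD hepatocyte nuclei turned to 0.20, and advanced against mild CDAHFD hepatocyte nuclei gave 6 calls. DESeq2 gave 10 calls in that comparison, 6 in advanced against mild CDAHFD whole-liver nuclei (1 with only the 2 groups fitted in edgeR) and 9 for the diet difference in hepatocyte nuclei. It was given all 78 members without the filter, 4 of them with no count in any library, so 78 is not the number tested. The main fits tested 45, 51 and 46 members and called 3, 2 and 5. The share over all genes called by DESeq2 is not given here, and the cause was not tested. The replicate block gave 10 calls for fraction by disease in FPC mice, and the exchanged pairing 13 in CDAHFD mice; of the other counts over both directions the block changed none by over 1.5 times, and by direction it raised the higher calls of hepatocyte against whole-liver nuclei from 0 to 1, 3 and 3 in FPC control, mild and advanced mice, from 0 to 1 in CDAHFD control and from 4 to 7 in CDAHFD mild mice, and lowered them from 6 to 4 in CDAHFD advanced mice.

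Leaving out single libraries gave, for advanced against control, mild against control and advanced against mild, 26 to 31, 22 to 28 and 11 to 17 calls in FPC hepatocyte nuclei, 27 to 32, 24 to 31 and 0 to 5 in CDAHFD hepatocyte nuclei, 36 to 40, 28 to 31 and 19 to 28 in FPC whole-liver nuclei, and 35 to 41, 31 to 35 and 0 to 3 in CDAHFD whole-liver nuclei. It gave 1 to 7 and 6 to 13 for the diet difference in hepatocyte and whole-liver nuclei, fewest without FPC control mouse Control_6816 and CDAHFD advanced mouse Advanced_9845. In the fits of both fractions, both libraries of a mouse were left out together. Fraction by disease then gave 2 to 5 calls in FPC and 6 to 9 in CDAHFD mice. Hepatocyte against whole-liver nuclei gave 20 to 24, 24 to 28 and 25 to 29 in FPC control, mild and advanced mice. In the CDAHFD groups it gave 21 to 25, 31 to 34 and 27 to 33. Members with few counts in control mice (Mmp7, Mmp12, Mmp24 and Mmp27 in hepatocyte nuclei, Timp1 in FPC whole-liver nuclei) are limited by depth.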
